A study of Mus musculus with 3 samples.

Results

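Phospholipases cut membrane phospholipids, and 3 families of them were read on arrays of mouse blastocysts: phospholipases A2 (PLA2), phosphoinositide-specific phospholipases C (PLC) and phospholipases D (PLD). The genes were chosen by name. A probe was taken when its transcript belonged to a gene called Pla2g, Plc or Pld with the number or letter of a family member. This gave 68 of the 56605 probes besides the controls and 39 of the 23458 genes that could be named. The 39 genes were 10 secreted PLA2, 6 cytosolic PLA2 of group IV, 3 other PLA2 genes (Pla2g6, Pla2g7 and Pla2g15), 13 PLC and 6 PLD genes, and Pla2g10os, a long non-coding RNA from the strand opposite Pla2g10. Of 41 gene names that match, 2 had no probe (Pla2g2a and Pla2g4c-ps, which the gene table of the reference strain lists as pseudogenes).

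The study asked what happens in the embryos of aging mothers when signaling from the chemokine CXCL5 through its receptor CXCR2 is suppressed. Zygotes of superovulated ICR females were grown in KSOM medium for 96 h, and RNA of 30 blastocysts was pooled for each of 3 arrays. The young array had embryos of females aged 3 to 6 weeks and the aging array those of females aged 43 to 53 weeks, both without treatment. The suppressed aging array had embryos of females aged 43 to 53 weeks, grown with 10 μg/ml of an anti-CXCL5 neutralizing antibody and 10 nM of a CXCR2 antagonist. On these arrays the antibody and the antagonist were given together, and there was no array of treated young embryos. Each condition had 1 pool and 1 array, so no value has a replicate and no difference between conditions was tested. The number of arrays limits the precision. A lower level in a pool can be fewer cells of a type or less RNA per cell, and these cannot be told apart.

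PLA2 enzymes release a fatty acid, often arachidonate, and leave a lysophospholipid. PLC enzymes split phosphatidylinositol bisphosphate (PIP2) into inositol trisphosphate (IP3), which frees calcium from stores, and diacylglycerol, which activates protein kinase C. PLD enzymes in the strict sense make phosphatidate, although some genes of the family have turned to other substrates such as nucleic acids. In the egg, PLC zeta brought in by the sperm sets off the calcium waves of activation, and in the blastocyst calcium, prostaglandins and lysophospholipids are known to act in cavity formation, hatching and attachment.

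To show the regulatory sequence of the genes on which the results turn, 4 promoters are printed 5′ to 3′ on the strand of the gene, with 250 bases before the start site and 50 after it, from RefSeq on GRCm38.p6. Capitals mark the dinucleotide CG, which reads the same on both strands and is frequent in the CpG islands of many broadly used promoters. Pla2g5 and Pla2g2e lie close together in the secreted PLA2 cluster of chromosome 4 and both stood highest on the aging array. The Pla2g5 start at chr4:138819208-138819507 (minus strand) is 1 of 2 and held 6 CG, and the Pla2g2e promoter at chr4:138877692-138877991 (plus strand) held 4. Plcg1, at chr2:160731060-160731359 (plus strand), was lowest on the aging array and highest after suppression and held 27. Plcb1, at chr2:134785914-134786213 (plus strand), held 26 and was above background on no array.
Pla2g5: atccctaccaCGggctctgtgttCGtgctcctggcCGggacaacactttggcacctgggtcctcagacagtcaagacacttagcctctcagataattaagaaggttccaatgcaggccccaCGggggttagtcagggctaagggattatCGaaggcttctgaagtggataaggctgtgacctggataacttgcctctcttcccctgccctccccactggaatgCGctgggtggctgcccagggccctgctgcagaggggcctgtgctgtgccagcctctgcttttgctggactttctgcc
Pla2g2e: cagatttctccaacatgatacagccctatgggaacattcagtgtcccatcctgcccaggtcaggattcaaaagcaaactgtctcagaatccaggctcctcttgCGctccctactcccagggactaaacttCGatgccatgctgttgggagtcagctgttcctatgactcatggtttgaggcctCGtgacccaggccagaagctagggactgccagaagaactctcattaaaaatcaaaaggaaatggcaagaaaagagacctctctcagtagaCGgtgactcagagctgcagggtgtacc
Plcg1: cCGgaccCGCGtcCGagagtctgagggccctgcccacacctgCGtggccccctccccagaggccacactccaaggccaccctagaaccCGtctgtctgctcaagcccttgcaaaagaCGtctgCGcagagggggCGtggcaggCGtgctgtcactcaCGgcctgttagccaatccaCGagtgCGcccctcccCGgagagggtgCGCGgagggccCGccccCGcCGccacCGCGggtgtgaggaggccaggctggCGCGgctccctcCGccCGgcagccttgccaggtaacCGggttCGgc
Plcb1: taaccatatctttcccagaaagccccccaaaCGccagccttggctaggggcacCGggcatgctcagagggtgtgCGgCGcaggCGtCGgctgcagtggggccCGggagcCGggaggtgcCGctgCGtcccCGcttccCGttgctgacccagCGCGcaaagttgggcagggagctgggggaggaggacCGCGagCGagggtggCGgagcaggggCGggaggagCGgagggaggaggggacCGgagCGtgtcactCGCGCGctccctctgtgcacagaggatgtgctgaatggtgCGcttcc

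A level here is the log2 of the spot intensity minus the 75th percentile of its array, so 0 is that percentile. A gene was counted as above background on an array when the scanner software marked at least 1 of its probes well above background. In young blastocysts 23 of the 39 genes (59%) were above background, in aging ones 25 (64.1%) and in suppressed aging ones 23 (59%). Over all named genes the shares were 65.1%, 65.5% and 63.8%. On all 3 arrays 19 phospholipase genes (48.7%) were above background, against 59.2% of all genes, and on none 11 (28.2%), against 29.2%. On at least 1 array 28 genes (71.8%) were above background, against 70.8% of all genes, and these differences in share were not tested.

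The subfamilies are small, and their shares are set beside the 65.1%, 65.5% and 63.8% of all named genes on the same arrays. Of 10 secreted PLA2 genes, 5 (50%) were above background in young, 7 (70%) in aging and 7 (70%) in suppressed aging blastocysts. Of 6 group IV genes, the young array showed 3 (50%), the aging array 1 (16.7%) and the suppressed aging array 2 (33.3%). For PLC the counts were 8, 9 and 7 of 13 (61.5%, 69.2% and 53.8%), and for PLD they were 4 of 6 (66.7%) on each array. Differences between subfamilies were not tested. The 11 genes above background on none were Pla2g2c and Pla2g3 of the secreted type, Pla2g4a, Pla2g4d and Pla2g4e of group IV, Plcb1, Plcb2, Plce1 and Plch2, and Pld1 and Pld5. Among them are Pla2g4a, the classical enzyme of arachidonate release, and Pld1, which with Pld2 carries most of the phosphatidate-forming activity of many cells. A probe not well above background bounds the level there and does not show that the RNA was absent.

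Of the 9 genes above background on 1 or 2 arrays, 3 were above it on the aging array alone (Pla2g2e, Pla2g7 and Plcb4), which is 7.69% of the 39 genes against 2.51% of all named genes. Pla2g1b and Pla2g2d were above background on both aging arrays (1.5% of all named genes), and Pla2g12b and Pla2g4f on the young and the suppressed aging array (1.37%). Plcz1 was above it on the young and the aging array (2.26% of all named genes), and Pla2g4c on the young array alone (2.24%). No phospholipase was above background on the suppressed aging array alone, where only 1.76% of all named genes were.

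**Figure D1:**
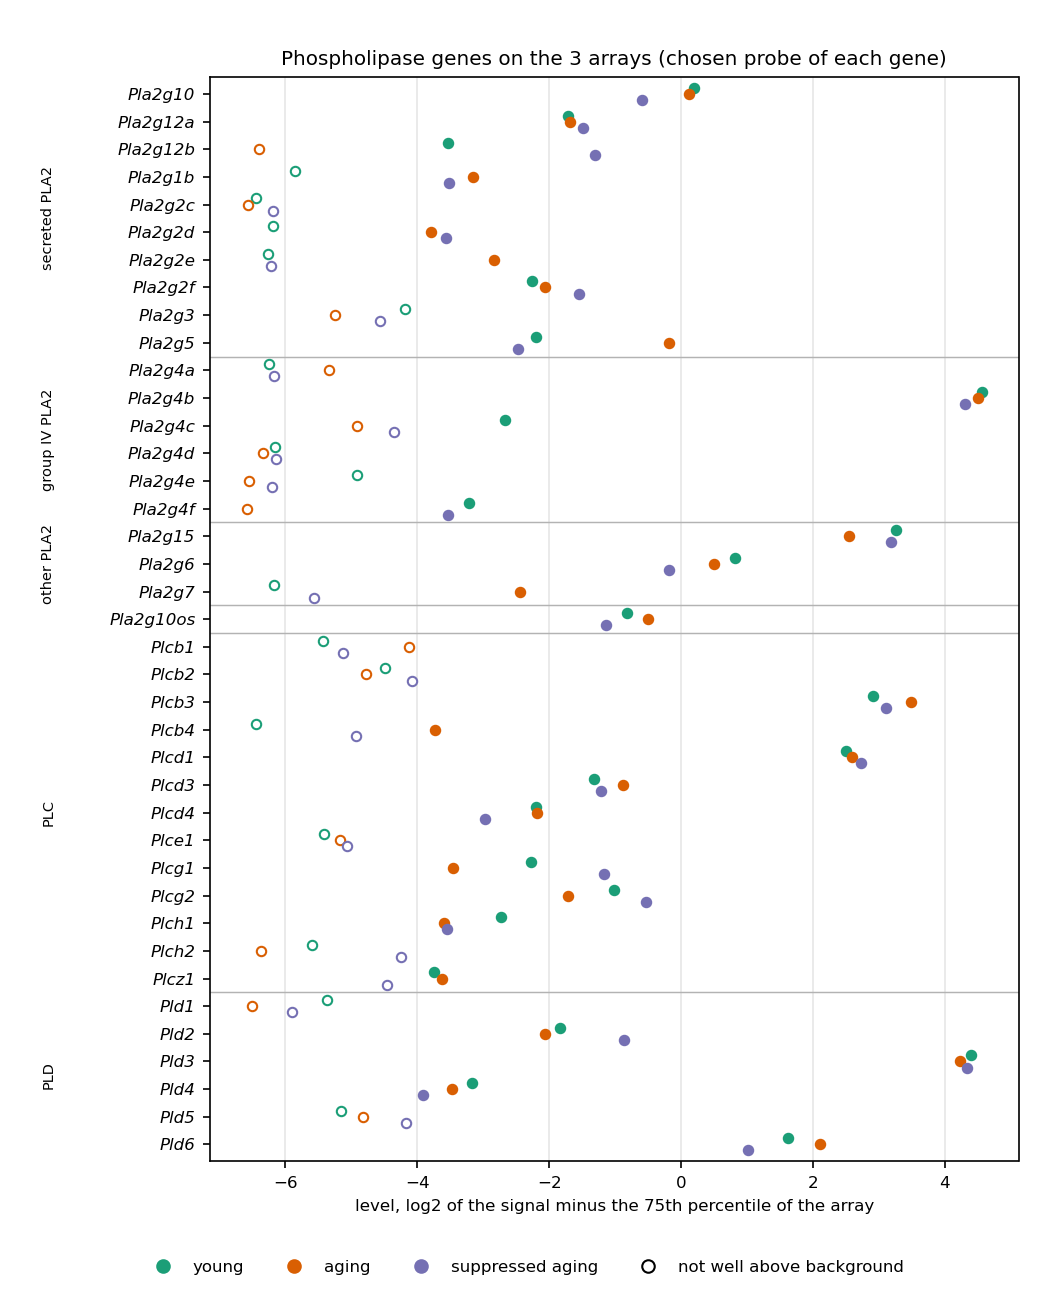
Level of each of the 39 phospholipase genes (rows, by subfamily) on the young, aging and suppressed aging array, as log2 relative to the 75th percentile of the array, for the probe of the gene with the highest mean level. Open symbols are not well above background. The 3 symbols of Pla2g4b, Plcd1 and Pld3 lie close together, whereas those of Pla2g5 and Plcg1 lie apart, and rows are not to be ranked because probes differ in how strongly they bind.

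Each pair of arrays was compared by the difference of their levels, with the probe of highest mean level for each gene. Where 1 of the 2 arrays was not well above background, the value is a bound set by the detection limit of that array (a level of -4.20 for the young, -4.32 for the aging and -3.93 for the suppressed array) or by the probe's own signal where that was higher. The error given with a difference is the scanner software's own error of the spots and says nothing about other embryos. The 3 comparisons share arrays in pairs, so that a high or low reading on the aging array enters both comparisons with it, in opposite directions.

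Between aging and young blastocysts, 28 of the 39 genes could be compared and 7 (25%) differed over 2-fold, where 19% of the 16164 genes compared did. Higher in aging blastocysts were 4 genes, Pla2g1b, Pla2g2e, Pla2g5 and Pla2g7 (9.86% of all genes), and lower were 3, Pla2g4c, Pla2g4f and Plcg1 (9.19% of all genes). Of the 7 genes, 6 were PLA2 genes (of 14 compared), 1 was a PLC gene (of 9) and none was a PLD gene (of 4). Of the 14 PLA2 values 7 were bounds, and among the 7 measured on both arrays only Pla2g5 was over 2-fold. No phospholipase had a value or bound over 5-fold, a size that 2.59% of all genes reached in the same way. Of the 28 values, 8 were bounds, which allow a larger difference. The median difference was 0.02 over the phospholipases and 0.03 over all genes. The median of the family was thus close to that of all genes, and its share over 2-fold was not far above theirs.

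After suppression of CXCL5-CXCR2 signaling, 27 genes could be compared with untreated aging blastocysts and 8 (29.6%) differed over 2-fold, against 17.3% of the 15875 genes compared. Higher were 4 genes, Pla2g12b, Plcg1, Plcg2 and Pld2 (8.77% of all genes), and lower were 4, Pla2g2e, Pla2g5, Pla2g7 and Pld6 (8.5% of all genes). Pld2 is counted here by its chosen probe, and another probe of it went the opposite way. With only the genes above background on both arrays, the count was 5 of 21, against 14.2% of all genes under the same filter. Only Pla2g12b had a value or bound over 5-fold, against 2.29% of all genes, and 6 of the 27 values were bounds. The median was -0.21 over the phospholipases and -0.0034 over all genes. Between suppressed aging and young blastocysts, 4 of 25 genes (16%) differed over 2-fold, against 16.3% of the 15931 genes compared. Higher after suppression were Pla2g12b and Plcg1 (8.67% of all genes), and lower were Pla2g4c and Pla2g6 (7.64% of all genes). No phospholipase had a value or bound over 5-fold in this comparison, against 2.43% of all genes, and 4 of the 25 values were bounds.

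**Figure D2:**
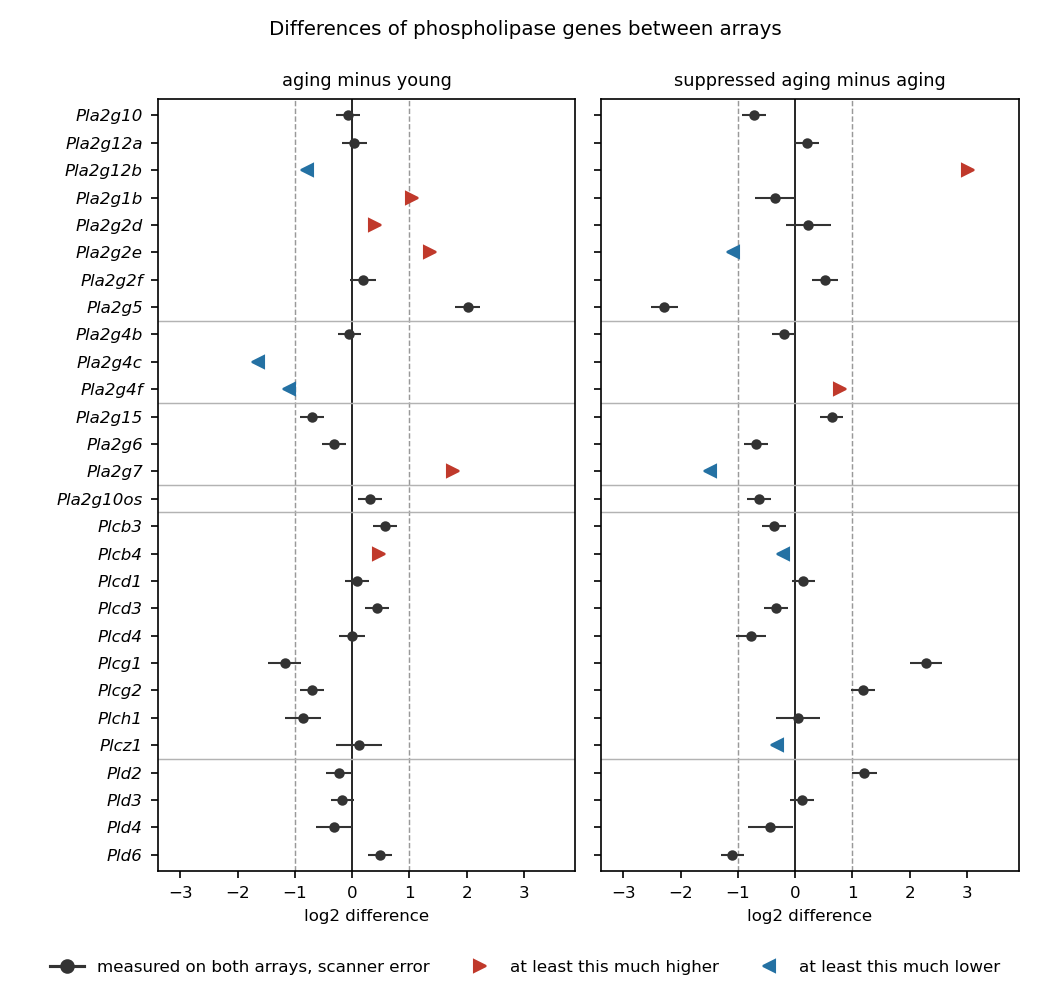
Log2 difference of the 28 phospholipase genes that could be compared, aging minus young (left) and suppressed aging minus aging (right). Circles with bars are genes above background on both arrays with the error of the scanner software, triangles are bounds, and dashed lines mark 2-fold. Pla2g5 lies at 2.02 on the left and -2.29 on the right, Plcg1 at -1.18 and 2.28, and both panels use the same aging array.

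Among the secreted PLA2 genes, Pla2g5 stood out by its size. It encodes the group V enzyme, which acts on membranes rich in phosphatidylcholine and is known from macrophages, airway and heart. Young blastocysts had a level of -2.19, aging ones of -0.18 and suppressed aging ones of -2.46. Aging blastocysts were 4.05-fold higher than young ones (log2 difference 2.02, scanner error 0.21), and after suppression the level was 4.88-fold lower (-2.29, scanner error 0.23). Suppressed aging and young blastocysts differed by -0.27 (scanner error 0.24). A second probe, on another transcript of the gene, read -3.62 on the young and -2.49 on the aging array and was not well above background after suppression. It gave a difference of 1.13 for aging against young and of -1.39 or lower for suppression. Both probes thus had their highest reading on the aging array, and Pla2g5 was the only phospholipase with 2 probes over 2-fold in 1 direction for aging against young, which 2.8% of all genes with 2 measured probes were.

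The neighbours of Pla2g5 on chromosome 4 did not share 1 pattern. Pla2g2e, a group II enzyme, had a level of -2.84 on the aging array, and neither of the other two arrays was well above background. It was at least 2.56-fold higher in aging than in young blastocysts (1.36 or more) and at least 2.13-fold lower after suppression (-1.09 or lower). Pla2g2d, a group II enzyme of lymphoid tissue, was not well above background on the young array and read -3.79 on the aging array and -3.57 after suppression. Another probe, on a different Pla2g2d transcript, was above background on the suppressed aging array alone (-3.53). It gave 0.79 or more for suppression, where the chosen probe gave 0.23. Pla2g2f, known from the skin, read -2.25, -2.06 and -1.54 on the young, aging and suppressed aging array. Pla2g2c, the fourth of these group II genes, was above background on none.

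Beside these readings, the summed level of the oocyte markers was also highest on the aging array, though not every marker was. Of 8 oocyte genes, young blastocysts showed 4 above background, aging ones 5 and suppressed aging ones 3, and the log2 of their summed level was -0.63, 0.88 and -0.73. Zp2, Zp3 and Bmp15 were highest on the aging array, Bmp15 at -1.25 against -3.45 after suppression and not well above background on the young array. Gdf9 (-1.99 in young and -2.05 in aging blastocysts) and Nlrp5 (-2.54 and -2.84) were not, and Zp1, Mos and Oosp1 were above background on none. Of 5 blood genes, 2, 2 and 1 were above background with a log2 summed level of -0.11, 0.64 and -1.14, and Hbb-bt and Ptprc were above background on none. Their part in the levels of Pla2g5, Pla2g2e, Pla2g7 and Plcb4 was not tested. Of 10 cumulus and granulosa genes, 5 were above background on each array with a log2 summed level of 8.56 to 8.79, nearly all of it from Foxl2 (8.66, 8.54 and 8.77), and Fshr, Has2, Ptx3, Tnfaip6 and Inha were above background on none. The 8 trophectoderm, 6 epiblast and 6 primitive endoderm markers of the blastocyst were above background on all 3 arrays. The log2 summed level of the trophectoderm markers was 8.98 in young, 8.58 in aging and 8.81 in suppressed aging blastocysts, that of the epiblast markers 10.01, 10.28 and 10.17, and that of the primitive endoderm markers 5.91, 6.07 and 5.82. All 6 epiblast markers were higher in aging than in young blastocysts (median 0.35, Sox2 and Fgf4 over 2-fold) and lower after suppression (median -0.34). Among the 8 trophectoderm markers, 6 were lower in aging blastocysts (median -0.18, Tfap2c over 2-fold) and 6 higher after suppression (median 0.18). The primitive endoderm markers were split, with 4 higher in aging blastocysts (Pdgfra over 2-fold) and 2 lower (Sox17 over 2-fold), at a median of 0.24. After suppression 5 of these 6 were lower (median -0.47). The part of the lineages in the levels of the phospholipases was not tested.

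The other secreted PLA2 genes were dim or steady. Pla2g12b encodes a relative without known catalytic activity that acts in lipoprotein secretion in liver and gut. Its level was -3.53 on the young and -1.31 on the suppressed aging array, and it was not well above background on the aging array. It was at least 8.09-fold higher after suppression than in untreated aging blastocysts (3.02 or more) and 4.68-fold higher than in young ones (2.23, scanner error 0.30), on its single probe. Pla2g1b, the pancreatic digestive enzyme, was not well above background on the young array and read -3.16 on the aging array and -3.51 after suppression, a difference of 1.04 or more for aging against young. Pla2g12a read -1.72, -1.68 and -1.48 on the young, aging and suppressed aging array, and the differences of 0.04 for aging and 0.20 for suppression were within their scanner error of 0.22.

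Pla2g10 encodes the group X enzyme, which is very active on phosphatidylcholine. Its level was 0.19 in young, 0.12 in aging and -0.60 in suppressed aging blastocysts, so it was lowest after suppression, with a difference of -0.72 from the aging array. A second probe, on a non-coding transcript of the gene, read -4.19, -3.21 and -2.68 and so was highest after suppression. The opposite-strand RNA Pla2g10os read -0.82, -0.50 and -1.14. The gene table places the start of Pla2g10os inside Pla2g10, and whether the labelled product kept the strand was not tested.

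In group IV, the bright member and the dim ones differed. Pla2g4b, a calcium-dependent cytosolic enzyme, read 4.56 in young, 4.51 in aging and 4.31 in suppressed aging blastocysts, and its largest difference was -0.25, between suppressed aging and young (scanner error 0.20). Its second probe read -2.17, -2.56 and -2.51. Jmjd7 lies next to Pla2g4b and is known to be joined to it in read-through transcripts, so a probe can read both. Pla2g4c, a calcium-independent member known in the mouse from oocytes and early embryos, read -2.67 on the young array and was not well above background on the others. It was at least 3.14-fold lower in aging (-1.65 or lower) and at least 2.40-fold lower in suppressed aging blastocysts (-1.26 or lower) than in young ones, and its second probe was above background on none. Pla2g4f read -3.22 on the young and -3.53 on the suppressed aging array and was not well above background on the aging array, a difference of -1.10 or lower for aging and of 0.79 or more for suppression. The 3 group IV genes that could be compared were thus lower on the aging than on the young array, Pla2g4c and Pla2g4f as bounds and Pla2g4b by no more than its scanner error.

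Pla2g7 encodes the plasma form of platelet-activating factor (PAF) acetylhydrolase, which macrophages secrete. It read -2.44 on the aging array and was not well above background on the others. It was at least 3.39-fold higher in aging than in young blastocysts (1.76 or more) and at least 2.82-fold lower after suppression (-1.49 or lower). However, 2 further probes of the same transcript were above background on no array, so the pattern rests on 1 of 3 probes. Pla2g15, the lysosomal phospholipase, read 3.25 in young, 2.55 in aging and 3.19 in suppressed aging blastocysts. The difference was -0.70 for aging against young and 0.64 for suppression (scanner error 0.20 for both), each under 2-fold. Pla2g6, the calcium-independent enzyme of membrane remodelling, read 0.82, 0.50 and -0.18, and suppressed aging blastocysts were 2.00-fold lower than young ones, which is just past the threshold. Its second probe read 0.29, -0.08 and 0.14 and gave -0.15 for the same comparison, so the 2-fold difference of Pla2g6 was not seen by both probes.

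The PLC gamma genes, whose enzymes are switched on by receptor tyrosine kinases, had their lowest level on the array where Pla2g5 had its highest. Plcg1 read -2.28 in young, -3.45 in aging and -1.17 in suppressed aging blastocysts. Aging blastocysts were 2.26-fold lower than young ones (-1.18, scanner error 0.29), and suppressed ones were 4.86-fold higher than aging ones (2.28, scanner error 0.28) and 2.15-fold higher than young ones (1.10, scanner error 0.23). Plcg2, the form of blood and immune cells, read -1.02, -1.72 and -0.53, with differences of -0.70 for aging and 1.19 for suppression (scanner error 0.21 for both). Both genes were lowest on the aging and highest on the suppressed aging array, and both had a single probe.

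Of the other PLC genes, Plcb3 and Plcd1 were bright and differed little. Plcb3, which Gq proteins activate, read 2.91, 3.48 and 3.11 on the young, aging and suppressed aging array, and its second probe read 0.59, 0.84 and 1.16. Plcd1, which calcium activates and which the placenta needs together with Plcd3, read 2.50, 2.59 and 2.73. Plcd3 read -1.32, -0.89 and -1.22 on 1 probe and -2.33, -2.89 and -2.16 on another, so that the probes gave opposite directions in both comparisons with the aging array. None of these probes differed over 2-fold between arrays.

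Plcb4, another Gq-activated member, was above background on the aging array alone on both of its probes, which read -3.73 and -3.46 there. The bounds were small, 0.47 or more and 0.74 or more for aging against young, and -0.21 or lower and -0.47 or lower for suppression. Plcd4, known from the acrosome reaction of sperm, had 3 probes. The chosen one read -2.19, -2.19 and -2.97, another -3.47, -3.46 and -2.50, and the last -3.43, -1.54 and -2.76. Only the last of these Plcd4 probes differed over 2-fold between aging and young blastocysts (1.89, scanner error 0.29), and the 3 probes did not share the array of their highest level. Plch1, a member known from nerve cells, read -2.73, -3.59 and -3.55. Plcz1, the sperm-borne activator of the egg, read -3.74 on the young and -3.62 on the aging array and was not well above background after suppression, and its other 2 probes were above background on none. Of 8 sperm genes, 5 were above background on each array with a log2 summed level of 0.66 to 0.90, and Odf1, Acrv1 and Smcp were above background on none. Their part in the level of Plcz1 was not tested.

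In the PLD family, Pld3 was bright and steady. It encodes a transmembrane protein of the endolysosome that cuts nucleic acids, and it read 4.40 in young, 4.23 in aging and 4.34 in suppressed aging blastocysts. Its other probes read -1.07, -0.76 and -0.86, and -0.18, 0.41 and -0.07. Pld4, its relative in immune cells, read -3.16, -3.47 and -3.91. Pld6, a protein of the outer mitochondrial membrane that also acts in piRNA formation in germ cells, read 1.63, 2.11 and 1.01. It was 2.14-fold lower after suppression than in untreated aging blastocysts (-1.10, scanner error 0.20), and its second probe was above background on none. Pld6 was the only phospholipase with a mean level of 0 or more that differed over 2-fold after suppression.

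Pld2 had 2 probes that went opposite ways. Its enzyme makes phosphatidate at the plasma membrane. The chosen probe read -1.84 in young, -2.07 in aging and -0.86 in suppressed aging blastocysts and was 2.31-fold higher after suppression (1.21, scanner error 0.22). The other, on a second transcript, read -0.90 on the young and -1.95 on the aging array and was not well above background on the suppressed aging array, at least 3.94-fold lower after suppression (-1.98 or lower). No direction is therefore given for Pld2 as a gene.

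Such disagreement was common among the phospholipases with several measured probes. The 2 brightest probes of a gene that were above background on both arrays were compared, and a direction was counted whatever its size. For suppressed aging against aging, 2 probes could be compared in 7 genes, and they had the same direction in 1 of them (Plcd4), which is 14.3% against 54.8% of 4830 genes. The third probe of Plcd4 went the other way (0.96), and the opposite directions of Pla2g4b were small (-0.20 and 0.05). Bounds were left out, as for Pla2g5 and Plcb4. For aging against young the count was 6 of 9 (66.7%) against 56.7% of 4861 genes, and for suppressed aging against young 4 of 7 against 56.1% of 4817 genes. The probes of a gene thus often gave opposite directions on these arrays, in this family and beyond it.

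**Figure D3:**
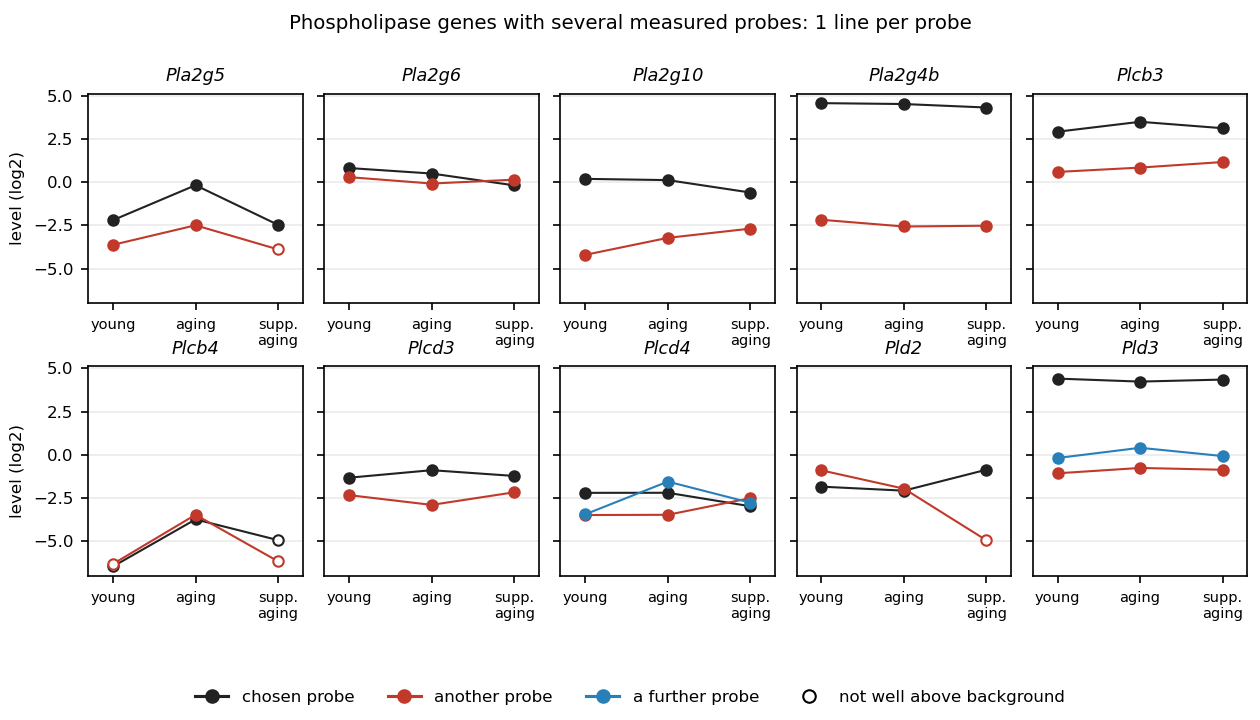
Level (log2) on the young, aging and suppressed aging array for every probe of 10 phospholipase genes with more than 1 measured probe, 1 line per probe. Open symbols are not well above background. The lines of Pla2g5 and of Plcb4 have the same shape, with a peak on the aging array, those of Pld2 part after suppression, and the distance between lines of a gene has no meaning.

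Dim and bright spots were measured with different precision. Probes spotted at least 5 times on an array had a median SD between spots of 0.157 to 0.185 under a level of 0 and of 0.044 to 0.051 above it, and the highest SD under a level of 0 was 0.31 to 0.43 (log2). Of the 19 phospholipases above background on all 3 arrays, 12 had a mean level under 0 and 7 had a level of 0 or more (Pla2g15, Pla2g4b, Pla2g6, Plcb3, Plcd1, Pld3 and Pld6). Over 2-fold for aging against young were 2 of the 12 and 0 of the 7, where 23.2% and 9.47% of all such genes were. For suppressed aging against aging these were 4 and 1, where 21.9% and 7.63% of all such genes were, and for suppressed aging against young 1 and 1, where 19.6% and 8.48% were. The medians of the absolute difference between aging and young blastocysts were alike in the 12 and the 7 genes (0.31 and 0.32). They were 0.68 and 0.37 for suppressed aging against aging, and 0.73 and 0.23 for suppressed aging against young. Over all such genes the medians were 0.49 and 0.34, 0.49 and 0.30, and 0.46 and 0.29 in the same order of comparisons. These spreads cover spots of 1 array and not embryos.

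The genes around the phospholipases were read from 5 lists. The list with the largest median for aging against young was that of 18 genes whose enzymes act on lysophospholipids, phosphatidate and related products. In aging against young blastocysts 14 of the 18 were higher and 4 were lower, where 8394 of all 16164 genes were higher. Their median was 0.68, against 0.03 over all genes, and 9 differed over 2-fold, where 19% of all genes did. No test was made, and the epiblast markers named above had the same direction. The 6 higher ones were Mboat7 (1.90) and Lpcat4 (1.36), which return fatty acids to lysophospholipids, Mboat1 (1.07) of the same kind, the PAF acetylhydrolase subunits Pafah1b1 (1.54) and Pafah1b2 (1.12), and the phosphatidate phosphatase Lpin3 (1.54). The 3 lower ones were Lpcat2 (-1.21), which makes PAF, Lpin1 (-1.31), and Enpp2 (-1.81 or lower), which makes lysophosphatidate.

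After suppression, 12 of 17 genes of the same list were lower than on the aging array and 5 were higher. Their median was -0.54. Mboat7 (-1.64) and Lpcat4 (-1.01) were lower and Lpcat2 (1.30) was higher over 2-fold, which is 3 of 17 genes where 17.3% of all genes were over 2-fold. Mboat7 read 1.25 in young, 3.15 in aging and 1.51 in suppressed aging blastocysts, and Lpcat2 read -0.14, -1.34 and -0.04. Suppressed aging and young blastocysts differed by a median of 0.18. Over 11 other ways of processing, the median stayed between 0.48 and 0.77 for aging against young and between -0.64 and -0.36 for suppression.

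The lists nearer to PLC and to the PLA2 products had smaller medians. Among 11 genes that supply PIP2 or activate PLC, all were above background and the medians were -0.10 for aging against young and 0.16 for suppression. Pip5k1a, a kinase that makes PIP2, was higher in aging blastocysts (1.08) and lower after suppression (-1.36), and Pip5k1b was lower after suppression (-1.21). In the IP3 and diacylglycerol branch, 15, 16 and 18 of 24 genes were above background. Prkd3, a kinase that diacylglycerol activates, was higher in aging blastocysts (2.38) and lower after suppression (-2.95), and Dgkg was higher in aging blastocysts (1.13 or more). After suppression the IP3 receptor Itpr2 was higher (2.54 or more) and Itpr3 (-1.62) and Prkce (-1.96) were lower, with list medians of 0.20 and then -0.15. The sign of the suppression medians changed with the processing. Over 11 other ways it ran from -0.49 to 0.37 in this branch and from -0.15 to 0.19 in the PIP2 list.

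Of 17 genes of eicosanoid synthesis, 10 were above background on each array, with medians of 0.12 for aging against young and -0.15 for suppression. Ptges, which makes prostaglandin E2, read 5.94, 5.95 and 5.90 on the young, aging and suppressed aging array, and the cyclooxygenase gene Ptgs2 read -1.41, -1.35 and -1.35. These 2 genes were level across the arrays, but Ptges2 of the same list read 2.12, 1.61 and 1.17. Higher in aging than in young blastocysts were 8 of the 10 genes, where 8394 of all 16164 genes were. Lower after suppression were 7 of the 10, where 7985 of all 15875 genes were. Lta4h, of leukotriene B4 synthesis, was higher in aging blastocysts (1.31) and lower after suppression (-1.48), Alox5ap was higher in aging blastocysts (1.05), and Alox12 was lower after suppression (-1.16). Of 7 regulators of PLD none differed over 2-fold, with medians of 0.01 and 0.08.

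**Figure D4:**
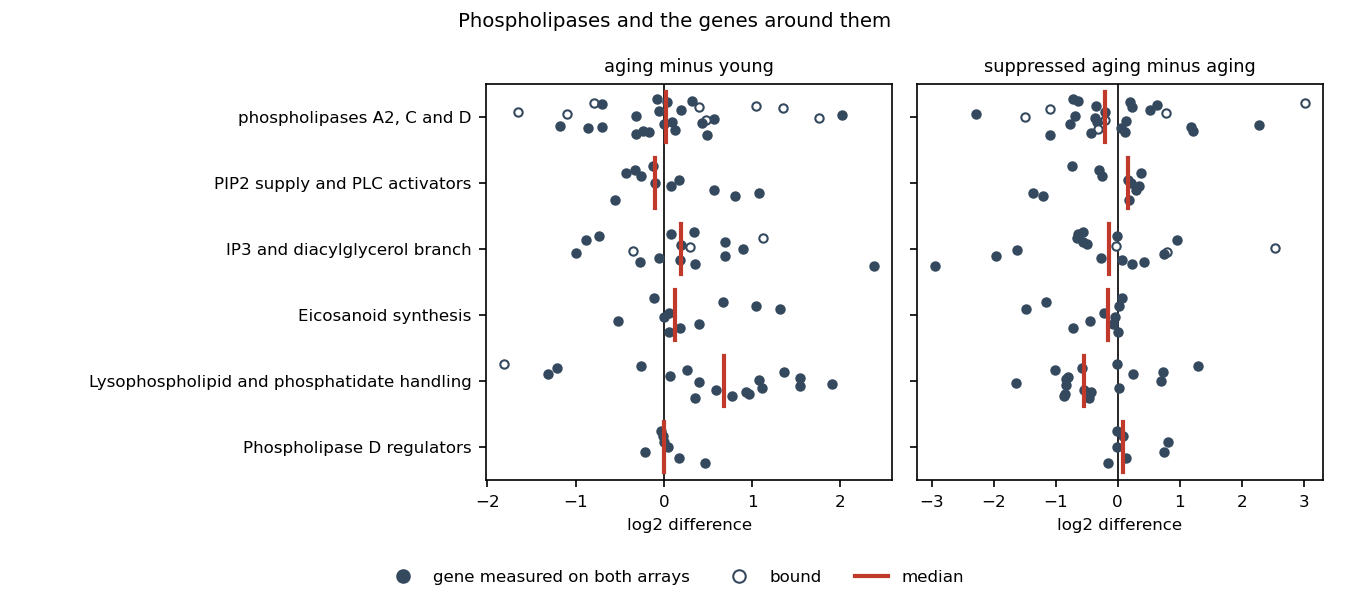
Log2 difference of each gene, aging minus young (left) and suppressed aging minus aging (right), for the phospholipases and 5 lists of genes around them. Filled symbols are measured on both arrays, open symbols are bounds, and red bars are medians. The genes of lysophospholipid and phosphatidate handling lie mostly to the right in the left panel (median 0.68) and to the left in the right panel (median -0.54), and both panels use the same aging array.

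Promoter CG content was set beside detection for the 36 of 39 genes that matched the promoter table (Pla2g3, Pla2g4b and Plcz1 did not). The motif searched was CG, and a gene with several starts was given their median. The 18 genes above background on all 3 arrays had a median of 17.75 CG in 300 bases, the 8 genes on 1 or 2 arrays 4.5, and the 10 genes on none 6.5. Over all named genes the medians were 19, 7 and 4. At least 10 CG were held by 61.1% of the phospholipase promoters in the first class, 25% in the second and 30% in the last, against 75%, 42.8% and 24.1% of all named genes in these classes, and 56.6% of all promoters. Plcb1, printed above, was the highest in the class above background on none, and Pla2g5 and Pla2g2e, with few CG, were above background on 3 arrays and on 1.

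**Figure D5:**
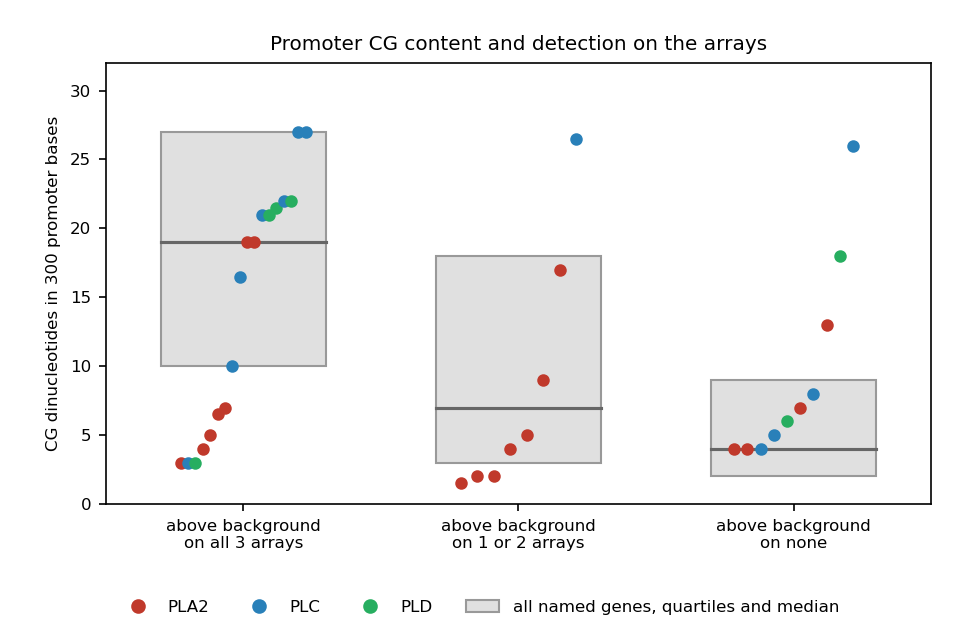
Number of CG dinucleotides in 300 promoter bases for each phospholipase gene, by the number of arrays on which the gene was above background. Grey boxes are the quartiles and the median of all named genes in each class. The 18 genes above background on all 3 arrays range from 3 to 27 CG, and Plcb1 lies at 26 among the genes above background on none.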

How the data were processed

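RNA of 3 pools of mouse blastocysts was read on 1-colour Agilent SurePrint G3 arrays (Cy3), on 1 slide in 1 scan. The deposited values are spot intensities that the authors obtained with Agilent Feature Extraction 12.0.3.1 after background subtraction, on a linear scale and not normalized between arrays. A second table of the authors gives these intensities multiplied by 1 factor for each array. The paper's methods describe amplification by global PCR, whereas the labels name a kit that labels cRNA. Which of them applies is not shown by the files.

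The 75th percentile of an array (intensities of 145, 155 and 122 in the order young, aging, suppressed aging) was set to 0 on a log2 scale. Probes well above background were 58.4%, 58.7% and 56.4%, and no spot was saturated. Of 56591 probes with values, 33759 were named through transcript accessions and a RefSeq gene table of GRCm38.p6. The array design names an older build, so probes have no coordinates here. Each gene was given by its probe with the highest mean level. A difference was a bound where 1 array was not well above background, and none was given where both were not. A gene was counted when it differed over 2-fold.

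All phospholipase genes are accounted for, and those above background on at least 1 array are given with values. The members and the lists were chosen with earlier results of these data known. Each array was 1 condition, taken from the labels, and no test was made. The calculation of differences and bounds was checked on simulated data, a copy of the young array with known differences put in. Such a check covers the calculation and not the spread between pools or arrays. As alternatives, quantile normalization, normexp (limma 3.58.1, offset 50), the authors' second table and centring on housekeeping genes or on probes above background everywhere were tried, as well as keeping outlier spots, averaging the probes of each gene, stricter and looser background filters, a 5-fold threshold and, added after seeing the data, the probe with the next highest level. Python 3.11.15, pandas 2.3.3, NumPy 2.4.6, Matplotlib 3.10.9 and R 4.3.3 were used.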

Additional observations from a re-analysis of the deposited data

How the results depend on the processing

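The counts of phospholipases over 2-fold depended on how dim spots were treated. For aging against young (7 of 28 genes) the count was 1 of 28 with normexp background correction (5.25% of all genes). It was 2 of 20 with only genes above background on both arrays (15.6%) and 0 of 28 at 5-fold. With no filter (21.3%) it was 14 of 39 and with the scanner's looser detection flag (24.8%) 14 of 37. In each of these 2 settings 7 were higher and 7 lower. For suppressed aging against aging (8 of 27 genes) it was 2 of 25 with normexp (4.67% of all genes) and 5 of 26 with the mean over probes (14.1%). It was 5 of 21 with only genes above background on both arrays (14.2%) and 1 of 27 at 5-fold. With no filter (20.4%) it was 12 of 39 and with the looser flag (24.1%) 12 of 36, 6 higher and 6 lower in each. For suppressed aging against young (4 of 25 genes) it was 0 of 25 with normexp (4.55%) and 0 of 25 at 5-fold. With no filter (20%) it was 9 of 39 and with the looser flag (23.4%) 9 of 35, 6 higher and 3 lower in each. The median for suppressed aging against aging (-0.21) was 0.12 with no filter, 0.078 with the looser flag and 0.20 with the next probe, and that for suppressed aging against young (-0.06) was 0.23 with the next probe. The cause was not tested. Pld2 in suppressed aging against aging (1.21) was -0.39 with the mean over probes and -1.98 with the next probe. Pla2g5 was over 2-fold under all 10 alternatives for both comparisons with the aging array (1.03 to 2.06 and -2.38 to -1.07), and Plcg1 kept its direction in 10 of 10 and was over 2-fold in 9 of 10. The background filters and the keeping of outlier spots could hardly change these values. The chosen probes were above background on all 3 arrays and had no outlier spot. Averaging could not change Plcg1, which has a single probe. With normexp, aging against young was 1.03 for Pla2g5 and -0.32 for Plcg1. No paired analysis was possible because there was 1 array per condition. Leaving out an array was not possible for the same reason. Differences of dim genes depended on how background was treated, and the spread between embryos was not measured.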
